A study of Mus musculus with 14 samples.

Results

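The genes described here encode the semaphorins, ephrins and Slits, which are guidance ligands, and the plexins, neuropilins, Eph receptors, Robo receptors and Unc5 receptors that read such ligands. They were followed in mouse primordial germ cells, from which eggs and sperm later form. Members were chosen by symbol alone: every gene whose symbol begins with Sema, Plxn, Epha, Ephb, Efna, Efnb, Robo or Unc5, together with Nrp1, Nrp2, Slit1, Slit2 and Slit3. Of 18193 genes with a probe set listed under exactly 1 symbol, 66 met this rule. They comprised 20 semaphorins, 5 ephrin-A and 3 ephrin-B ligands, 3 Slits, 9 plexins, 2 neuropilins, 9 EphA and 4 EphB receptors, 4 Robo and 4 Unc5 receptors. The remaining 3 share the letters only: Unc50 encodes an inner membrane protein of the secretory pathway, Unc5cl a cytoplasmic signalling protein, and Plxna4os1 is a transcript antisense to Plxna4.

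The study measured germ cell expression on Affymetrix arrays from embryonic day (E) 9.5 to E13.5, with 14 arrays in 7 groups of 2 biological replicates. The 3 groups up to E11.5 were unsexed, whereas at E12.5 and at E13.5 there was a female and a male group each. Germ cells of E10.5 to E13.5 came from BDF1 females crossed to males carrying a stella-EGFP transgene on a B6/CBA mixed background, so all these groups carry the reporter. They were sorted by its green fluorescence after trypsin digestion of the genital ridges. The E9.5 cells were C57BL/6 and came from an earlier study. No reporter or sort is given for them in the sources used here, and their cDNA was amplified with 22 PCR cycles against 12 for the other groups, so stage and study cannot be told apart at E9.5. Every sample started from 5 ng of RNA, given as the equivalent of 500 cells. No treatment was applied to any group, and how many embryos were pooled is not given in the sources used here.

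Semaphorins act through plexins, and the secreted class 3 semaphorins usually need a neuropilin as the binding co-receptor. Ephrins are bound to the membrane, so they meet Eph receptors at cell contacts and signal into both cells. Slits bind Robo receptors, and Unc5 receptors bind netrins and mediate repulsion. These families are best known from growing axons and blood vessels, and ephrins and Eph receptors also from boundaries between tissues.

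Values are log2 probe set signals, in which a difference of 1 is a 2-fold difference of signal. Signals of different probe sets do not measure transcript amounts on a common scale, so levels are compared between groups and never between genes. The table median was 4.72, and a signal below it is called dim. Where a gene is dim in a group, its log2 difference need not reflect the ratio of transcripts. The medians of single arrays ran from 4.66 to 4.80, and precision is limited by the 2 arrays of each group. Of 11 measured germ cell markers, Dppa3 and Pou5f1 lay between 12.44 and 13.76 on all 14 arrays. Others changed with age: Dazl read 5.71 and 3.70 at E9.5 and 13.52 and 13.16 in E13.5 females. Tfap2c read 12.06 and 12.40 at E9.5 and 9.62 and 9.17 in E13.5 males. The Y-linked gene Kdm5d lay between 6.87 and 7.66 on the 4 male arrays and between 1.44 and 3.04 on the 4 female arrays. A second Y-linked gene, Eif2s3y, lay between 10.67 and 11.53 in males and between 1.61 and 2.58 on 3 female arrays, but E13.5 female replicate 1 read 5.93. The difference between the 3′ and 5′ Gapdh probe sets, a measure of RNA integrity, was at most 2.53 except in E13.5 male replicate 2 at 3.16 and E13.5 female replicate 2 at 3.09. Counts without these 3 arrays therefore stand beside the E13.5 results.

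By mean over the arrays, 39 of the 66 members (59.1%) lay above the table median, against 66.5% of all genes. On every array 27 members lay above it and 10 members lay above it on none. Epha8 and Plxnb3 were listed at 0 on at least 1 array each. Means above the median were found for 12 of 20 semaphorins, 3 of 5 ephrin-A and all 3 ephrin-B genes, 2 of 3 Slits, 7 of 9 plexins, both neuropilins, 2 of 9 EphA and 3 of 4 EphB receptors, 1 of 4 Robo and 2 of 4 Unc5 receptors. These counts describe probe set signals, and they do not order the families by transcript amount.

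**Figure D1:**
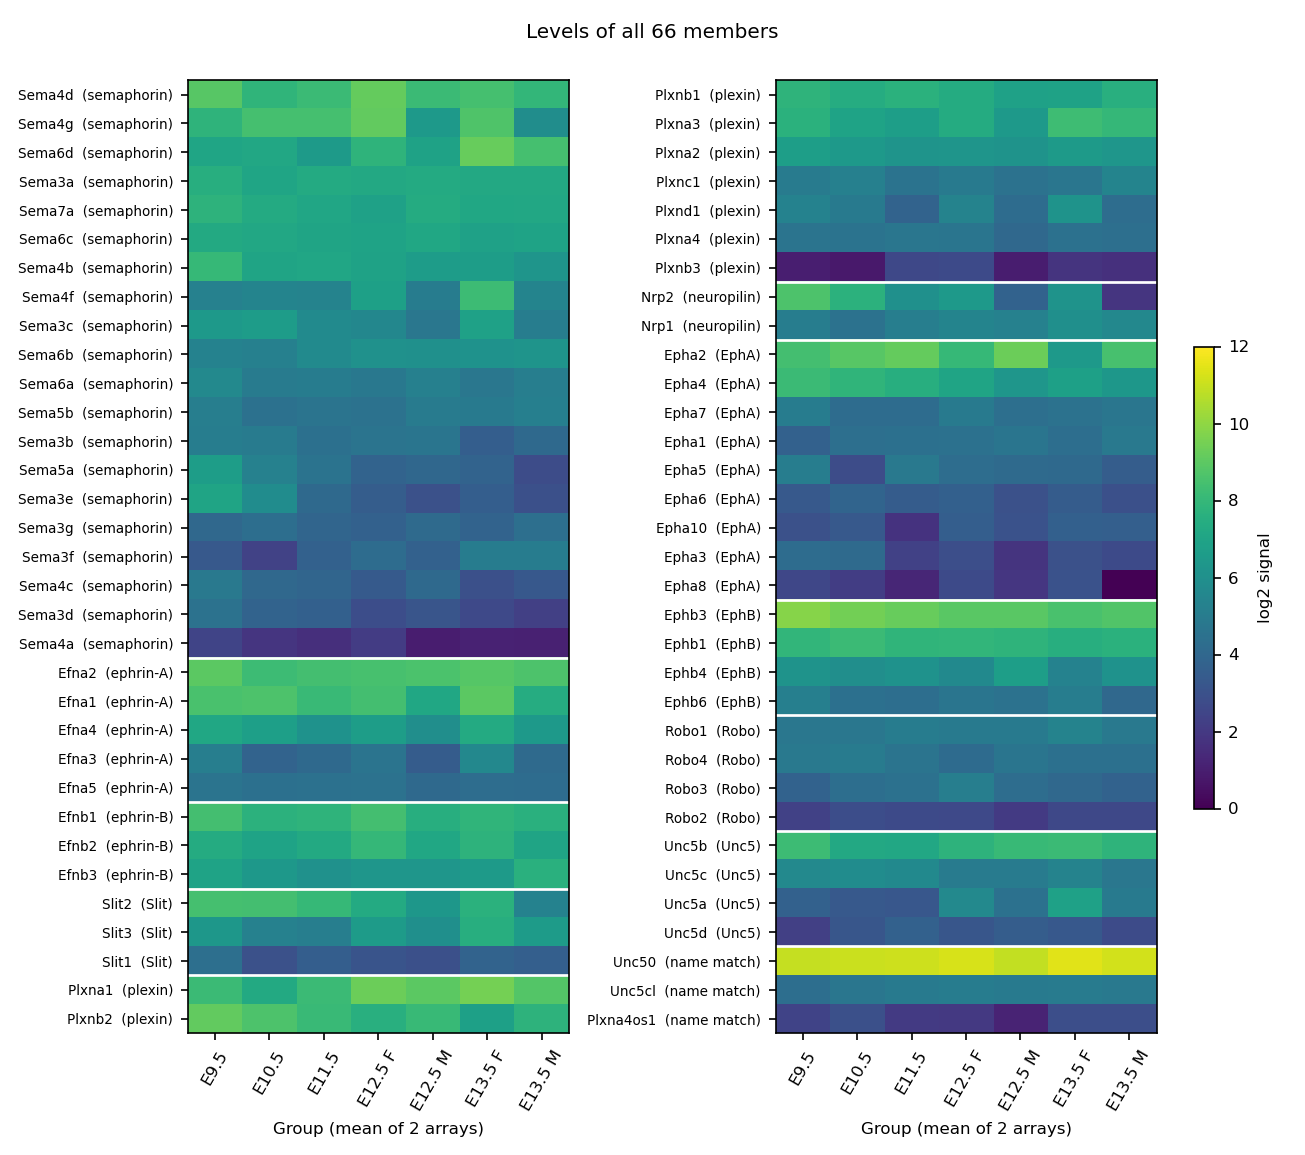
Mean log2 signal of the 2 arrays of each group (columns, F female and M male) for all 66 members (rows, grouped by family), colour from 0 to 12. Colours are to be compared within a row; Nrp2 goes from 8.63 at E9.5 to 1.85 in E13.5 males, and Unc5a from 3.24 at E11.5 to 6.88 in E13.5 females.

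In a moderated test fitted on all genes, passing means an adjusted p under 0.05 over the 18193 genes. From E9.5 to E10.5, 1 member passed, and 1.06% of all genes did. From E10.5 to E11.5 no member passed with limma, where 0.077% of all genes passed. Unadjusted p-values under 0.05 were found for 13 of the 66 members and 1286 of the 18193 genes in that step. From E11.5 to E12.5, 2 members passed in females (1.85% of all genes) and 3 in males (1% of all genes). From E12.5 to E13.5, 3 passed in females (1.88% of all genes) and 4 in males (2.1% of all genes). Between the sexes, 5 members passed at E12.5 (2.38% of all genes) and 10 at E13.5 (10.1% of all genes). From E10.5 to E13.5, 17 passed in females (17.8% of all genes) and 15 in males (12.7% of all genes). Any difference among the 6 groups from E10.5 to E13.5 was found for 21 members by the F test (18.4% of all genes). At E13.5 the members that passed between the sexes were 15.2% of the 66, and from E10.5 to E13.5 they were 25.8% in females and 22.7% in males. Shares of members and of all genes are given as a description, and no test compared them.

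The sex difference is described first. In males, 4 of 66 members were lower and 1 was higher at E12.5, where 1.71% of all genes were lower and 0.665% higher. At E13.5, 8 were lower and 2 higher, against 5.98% and 4.17% of all genes. The members lower in males at E13.5 were 5 ligands (Sema4g, Sema4f, Sema3c, Slit2 and Efna1) and 3 receptors (Nrp2, Plxnd1 and Unc5a). The 2 higher in males were the ligand Efnb3 and the receptor Epha2. The median difference of all members, male minus female, was -0.38 at E12.5 and -0.25 at E13.5, against -0.05 and -0.02 for all genes. Among the 10 members that passed at either age, 9 had the same sign at both ages, 5 passed at both, and all 10 had the larger difference at E13.5. Whether the sex difference itself grew from one age to the next was tested too. No member passed with limma (0.011% of all genes passed), while 7 of the 66 members and 1351 of the 18193 genes had an unadjusted p under 0.05. Among members above the table median in the higher group, the largest were Nrp2 at -1.62, Slit2 at -1.35, Plxnb1 at 1.19 and Plxnc1 at 1.13.

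Sema4g encodes a membrane-bound class 4 semaphorin. Its signal was 8.42 and 8.49 at E10.5 and 8.42 and 8.54 at E11.5, then 9.16 and 9.07 in E12.5 females but 6.63 and 6.23 in E12.5 males. At E13.5 it read 8.72 and 8.71 in females against 5.99 and 5.78 in males. The 4 male arrays lay below every other array, with no overlap. The male-minus-female difference was -2.69 (SE 0.20, adjusted p 0.000115) at E12.5 and -2.83 (SE 0.20, adjusted p 3.39e-05) at E13.5. Sema4g fell in males between E11.5 and E12.5, by 2.05 (adjusted p 0.00241), while its step in females was 0.64 and did not pass.

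Sema4f encodes another class 4 semaphorin, and here the female arrays stood apart from earlier days. Signals were 5.65 and 5.19 at E10.5 and 5.47 and 5.31 at E11.5. Females then read 6.75 and 6.86 at E12.5 and 8.44 and 8.01 at E13.5, whereas males read 4.59 and 5.52, then 5.21 and 5.59. Both female groups lay above all male and earlier arrays of this gene. The difference was -1.75 (SE 0.33, adjusted p 0.0225) at E12.5 and -2.83 (SE 0.33, adjusted p 0.000466) at E13.5. A second probe set of Sema4f gave -2.33 at E13.5 (adjusted p 0.000839), but its -0.86 at E12.5 did not pass (adjusted p 0.226). With the mean of both probe sets the E12.5 difference was -1.3 (adjusted p 0.0528).

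Nrp2 encodes neuropilin 2, a co-receptor for class 3 semaphorins and for VEGF-C, and at E13.5 it had the largest sex difference of the 66 members. It read 8.12 and 7.33 at E10.5 and 5.83 and 6.18 at E11.5. Female arrays then stayed between 5.75 and 6.58, whereas males read 3.83 and 3.70 at E12.5 and 2.04 and 1.65 at E13.5, all dim. The difference was -2.69 (SE 0.36, adjusted p 0.00324) at E12.5 and -4.31 (SE 0.36, adjusted p 6.51e-05) at E13.5. With all values below 3.12, the lower quartile of the table, raised to it, the E13.5 difference was -3.03. A second probe set of Nrp2 differed by -1.45 at E12.5 (adjusted p 0.116) and by 0.06 at E13.5 (adjusted p 0.966), so the E13.5 difference rests on the probe set of higher mean. The mean of all Nrp2 probe sets gave differences of -1.09 (adjusted p 0.105) at E12.5 and -1.04 (adjusted p 0.0513) at E13.5.

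Epha2 encodes a receptor for ephrin-A ligands, and its signal was higher in males. It read 8.95 and 8.81 at E10.5 and 9.31 and 9.02 at E11.5. Females read 7.91 and 8.17 at E12.5 and 6.30 and 6.66 at E13.5, whereas males read 9.63 and 9.00, then 8.41 and 8.60. The difference was 1.28 (SE 0.25, adjusted p 0.0269) at E12.5 and 2.03 (SE 0.25, adjusted p 0.000618) at E13.5. Females fell by 1.56 from E12.5 to E13.5 (adjusted p 0.0173), and the male step of -0.81 did not pass. All female arrays of E12.5 and E13.5 lay below all male arrays of the same ages.

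The promoter windows of these 4 genes are printed as examples that differ in CG content, in cells whose DNA methylation is being lost at these ages. All 4 passed between the sexes at both ages, as did Efna1, whose 2 windows are not printed. Each window runs from 250 bases before to 50 bases after the transcription start, 5′ to 3′ on the gene's strand, from RefSeq on build GRCm38.p6, with every CG in capitals. The Nrp2, Epha2 and Sema4f windows hold 5′ flank and the first transcribed bases of the gene. The Sema4g window surrounds a transcription start that lies inside the gene, whose RefSeq span begins upstream at base 44988743.
Sema4g (chr19:44989094-44989393, plus strand): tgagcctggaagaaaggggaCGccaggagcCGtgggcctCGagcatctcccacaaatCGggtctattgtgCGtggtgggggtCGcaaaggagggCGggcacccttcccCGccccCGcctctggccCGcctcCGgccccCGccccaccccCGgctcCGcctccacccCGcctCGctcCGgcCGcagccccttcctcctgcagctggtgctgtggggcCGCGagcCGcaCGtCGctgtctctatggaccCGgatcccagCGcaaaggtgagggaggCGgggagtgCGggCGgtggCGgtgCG
Sema4f (chr6:82939720-82940019, minus strand): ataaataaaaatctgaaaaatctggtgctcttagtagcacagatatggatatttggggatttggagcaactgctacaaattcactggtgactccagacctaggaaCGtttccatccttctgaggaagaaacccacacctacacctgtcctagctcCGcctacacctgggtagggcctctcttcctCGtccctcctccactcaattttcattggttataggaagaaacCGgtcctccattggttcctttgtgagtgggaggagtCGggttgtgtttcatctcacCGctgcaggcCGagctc
Nrp2 (chr1:62703067-62703366, plus strand): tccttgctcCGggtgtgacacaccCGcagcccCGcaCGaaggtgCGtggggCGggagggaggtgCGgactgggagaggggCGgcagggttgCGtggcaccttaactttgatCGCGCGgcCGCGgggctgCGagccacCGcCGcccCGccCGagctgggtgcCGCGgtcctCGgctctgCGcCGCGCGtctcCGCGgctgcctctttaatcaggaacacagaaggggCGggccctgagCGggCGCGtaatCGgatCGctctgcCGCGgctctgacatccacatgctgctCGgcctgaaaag
Epha2 (chr4:141300971-141301270, plus strand): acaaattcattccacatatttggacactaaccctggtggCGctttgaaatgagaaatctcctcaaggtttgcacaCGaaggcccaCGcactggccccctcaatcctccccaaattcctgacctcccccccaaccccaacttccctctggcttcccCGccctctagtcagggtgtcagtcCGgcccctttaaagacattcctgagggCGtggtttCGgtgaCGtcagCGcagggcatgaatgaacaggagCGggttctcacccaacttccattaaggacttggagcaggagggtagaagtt
The Sema4g window held 30 CG, Nrp2 37, Epha2 10 and Sema4f 7. Over 32851 mouse windows of the same length the median was 7, and 34.6% held at least 15. Windows were listed for 57 members, 73 in all, with a median of 19 CG, and 61.6% of them held at least 15. Among the sex-different members, Slit2 had 30, Unc5a 37, Sema3c 42, Plxnd1 23 and both windows of Efna1 20. Of the genes lower in males, only Sema4f had a window with fewer than 15 CG. A relation of CG content to the sex difference was not tested. The letters AGGTCA, a site bound by several nuclear receptors, searched on both strands, occurred in 16.3% of all windows and 12.3% of the members' windows. Among the genes printed only the Epha2 window held them. The letters CACGTG, an E-box that reads the same on both strands, occurred in 7.15% of all windows and 6.85% of the members' windows. None of the windows printed held CACGTG, and methylation was not analysed here.

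The other ligands lower in E13.5 males had smaller differences. Slit2, a secreted ligand of Robo receptors, read 8.13 and 8.71 at E10.5 and 7.51 and 8.57 at E11.5. Females then read 7.26 and 7.37 at E12.5 and 7.76 and 7.58 at E13.5, while males read 6.31 and 6.35, then 5.58 and 5.09. Its difference was -2.34 (SE 0.34, adjusted p 0.00168) at E13.5, and the -0.99 at E12.5 did not pass (adjusted p 0.211). No Robo receptor passed in either sex comparison, and Ephb4, an ephrin-B receptor, had one of the larger differences that did not pass at E12.5, at 1.03 (adjusted p 0.31). With the mean of its probe sets, the Slit2 difference at E13.5 was -0.45 (adjusted p 0.471).

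Sema3c is a secreted class 3 semaphorin. It read 6.69 and 6.56 at E10.5, and at E13.5 it read 6.77 and 6.93 in females against 5.23 and 4.93 in males. E12.5 arrays read 5.42 and 5.65 in females and 4.72 and 4.83 in males. Female signal at E13.5 was thus near its E10.5 level and above that of E12.5, while male signal was below its E10.5 level at both ages. The E13.5 difference was -1.77 (SE 0.29, adjusted p 0.00309), and -0.76 at E12.5 did not pass. A second Sema3c probe set, with group means between 5.80 and 5.98, differed by 0.09 at E13.5 (adjusted p 0.903), and with the mean of both the difference was -0.84 (adjusted p 0.066).

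Efna1 encodes ephrin-A1, a ligand of EphA receptors. It read 8.54 and 8.26 in females and 7.34 and 6.99 in males at E12.5, and 9.11 and 8.86 against 7.54 and 7.32 at E13.5. The differences of -1.24 (SE 0.21, adjusted p 0.0146) and -1.56 (SE 0.21, adjusted p 0.00114) both passed. A second Efna1 probe set gave -1.2 at E12.5 (adjusted p 0.323) and -1.87 at E13.5 (adjusted p 0.037). With the mean of both probe sets, the E12.5 difference was -1.22 (adjusted p 0.11) and did not pass. Efna1 and its receptor Epha2 thus differed between the sexes in opposite directions, with the ligand higher in females and the receptor higher in males.

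Efnb3, which encodes the membrane-spanning ephrin-B3, read 6.26 and 6.36 in females and 6.21 and 6.38 in males at E12.5, a difference of -0.02 with a 95% interval of -0.49 to 0.46. At E13.5 it read 6.64 and 6.43 in females and 7.60 and 7.63 in males, a difference of 1.08 (SE 0.22, adjusted p 0.00982). The male step from E12.5 to E13.5 was 1.32 (adjusted p 0.0138). The change of its sex difference was 1.10 with an unadjusted p of 0.00469 and an adjusted p of 0.326.

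Among the receptors, Unc5a, a netrin receptor, read between 3.07 and 3.51 on the E10.5 and E11.5 arrays. Females read 5.23 and 6.02 at E12.5 and 6.66 and 7.10 at E13.5, and males 4.49 and 4.48, then 5.09 and 4.82. Unc5a was therefore above its earlier dim level in both sexes and higher in females. The difference was -1.93 (SE 0.33, adjusted p 0.00439) at E13.5 and -1.14 (adjusted p 0.128) at E12.5. Plxnd1, a plexin known for guiding vessels as a receptor of Sema3e, read 6.05 and 6.27 in E13.5 females and 3.80 and 4.76 in E13.5 males. Its difference was -1.88 (SE 0.40, adjusted p 0.0134) at E13.5 and -1.14 (adjusted p 0.216) at E12.5.

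**Figure D2:**
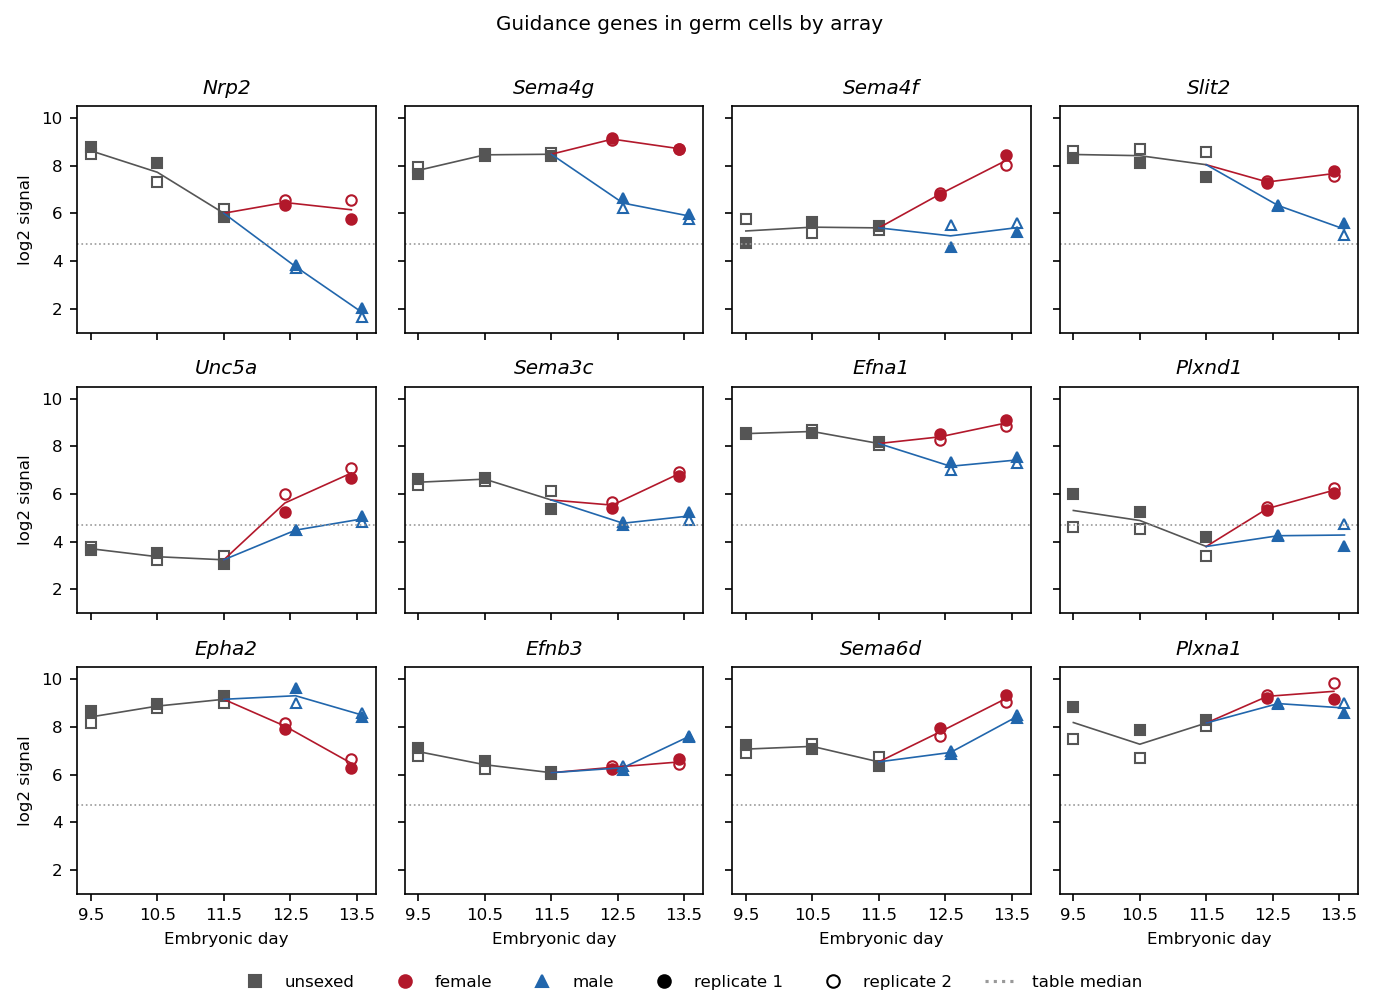
Log2 signal on each array against embryonic day for 12 members, with squares for unsexed, circles for female and triangles for male arrays (filled for replicate 1, open for replicate 2), lines through group means and a dotted line at the table median of 4.72. At E13.5 both male arrays lie below both female arrays in the first 8 panels and above them for Epha2 and Efnb3; Sema6d and Plxna1 lie higher at E13.5 than at E10.5 in both sexes.

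Leaving out 1 array bore on these calls as follows. In each of these fits the share of all genes that passed fell too. At E12.5 the count of 5 was 2 without female replicate 1, 1 without female replicate 2, 3 without male replicate 1 and 4 without male replicate 2. Sema4g passed each time, and Nrp2 did not pass without female replicate 2 (adjusted p 0.0582). At E13.5 the count of 10 was 9 without female replicate 1, the array with the higher Eif2s3y signal, and the member lost was Plxnd1 (adjusted p 0.063). It was 8 without male replicate 1, 9 without male replicate 2 and 8 without female replicate 2. Efnb3 and Plxnd1 each passed in 1 of these 4 fits and the other 8 members in all 4. Without both arrays of high Gapdh difference, 4 members passed at E13.5: Nrp2 at -3.71, Sema4f at -3.23, Sema4g at -2.73 and Epha2 at 2.11.

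**Figure D3:**
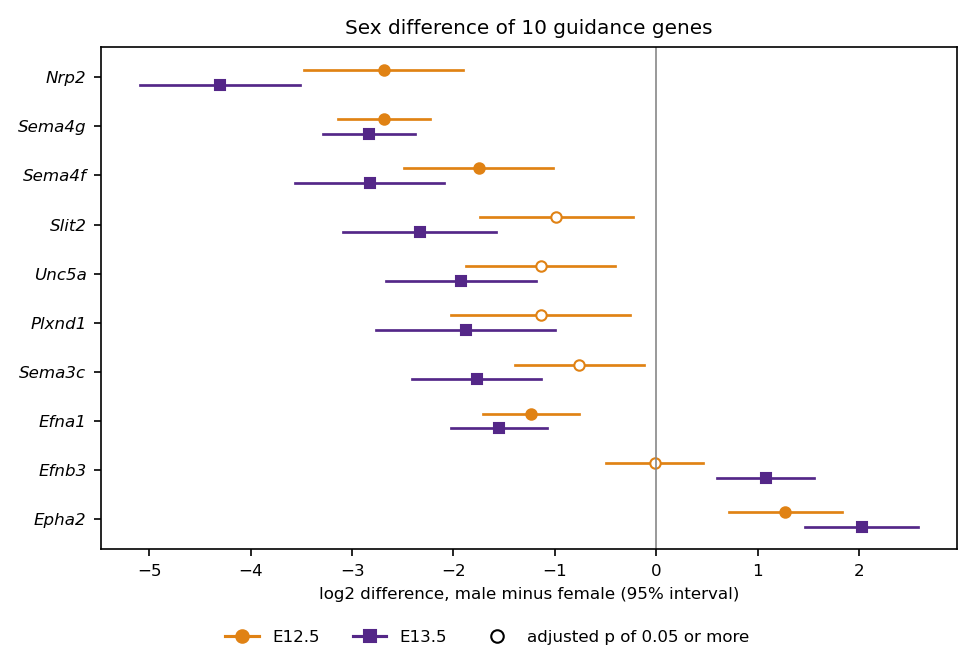
Male-minus-female difference in log2 signal at E12.5 (circles) and E13.5 (squares) for the 10 members that passed at either age, with 95% intervals from the model and open symbols where the adjusted p was 0.05 or more. Nrp2 lies at -2.69 and -4.31 and Epha2 at 1.28 and 2.03; Efnb3 lies at -0.02 at E12.5 and 1.08 at E13.5.

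Markers of other cells differed between the sexes in the same arrays. At E13.5 in males, 2 of 8 male supporting cell markers were higher (Cst9 by 6.44 and Ptgds by 3.41). Of 6 female supporting cell markers 3 were lower (Irx3, Bmp2 and Wnt4). Of the rest, Rspo1 (8.95 against 7.81) and Fst (5.69 against 4.92) had the higher mean in males. Foxl2 had the lower (5.51 against 5.63), and none of the rest passed. The defining markers Sox9 and Amh lay at 2.39 and 2.82 and at 6.03 and 5.99 in E13.5 males. In E13.5 females Sox9 lay at 2.95 and 3.31 and Amh at 6.17 and 5.70. Of 6 gut markers, Cdx2 at -6.13 and Foxa1 at -1.79 were lower. Foxa2 and Vil1 had the lower mean in males and Shh and Krt19 the higher, and none of them passed. The log2 of the summed male supporting signal lay between 9.93 and 10.25 in males and between 8.92 and 9.19 in females, that of the female supporting list between 9.30 and 9.59 against 9.29 and 9.31, and that of the gut list between 7.90 and 8.05 against 9.07 and 9.08. Of 10 endothelium markers 1 was higher (Cldn5, 1.94), of 16 gonadal somatic markers 1 was lower (Nr2f1, -2.98), and of 10 neural and crest markers 2 were higher and 1 lower. No blood marker passed, and of 11 germ cell markers Tfap2c was lower by -1.16. At E12.5, Cst9 at 4.90 and Ptgds at 1.91 were already higher in males and Cdx2 at -3.71 lower. Of the neural markers, Tubb3 was higher then by 1.47 and Nefm at -3.47 and Stmn2 at -1.86 were lower, with summed signals between 9.33 and 9.42 in males and between 9.78 and 9.81 in females. The part of such cells in the sex differences of guidance genes was not tested. In bulk samples, fewer cells of a type and less RNA per cell cannot be told apart.

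From E10.5 to E13.5, 10 members rose and 7 fell in females, where 11.4% of all genes rose and 6.4% fell. In males 7 rose and 8 fell, against 7.44% and 5.27% of all genes. The median change of all 66 members was 0.11 in females and -0.12 in males, against 0.08 and 0.07 for all genes. Both comparisons share the E10.5 arrays. Changes passed in both sexes for 7 members, in females only for 10 and in males only for 8; whether the sexes differ in them was tested only by the sex comparison at E13.5.

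Among the ligands, Sema6d rose in both sexes. It encodes a membrane-spanning class 6 semaphorin. Sema6d read 7.10 and 7.28 at E10.5, 9.35 and 9.06 in E13.5 females and 8.38 and 8.50 in E13.5 males, with no overlap. Its change was 2.02 (SE 0.23, adjusted p 0.000222) in females and 1.25 (SE 0.23, adjusted p 0.00463) in males. It also passed from E12.5 to E13.5, at 1.41 in females (adjusted p 0.0174) and 1.51 in males (adjusted p 0.0116), and from E11.5 to E12.5 in females at 1.26 (adjusted p 0.025). A second Sema6d probe set changed over these 3 steps by -0.06, 0.52 and 0.43, and none passed. With the mean of all Sema6d probe sets the changes from E10.5 were 1.17 in females (adjusted p 0.0262) and 0.97 in males (adjusted p 0.073), and the 3 single steps, at 0.65, 0.75 and 0.18, did not pass.

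Sema3f, a secreted semaphorin that binds neuropilin 2, read 2.56 and 2.22 at E10.5, 5.21 and 4.83 in E13.5 females and 5.03 and 5.02 in E13.5 males. It thus went from dim signal to just above the table median, by 2.63 in females (adjusted p 0.00899) and 2.64 in males (adjusted p 0.0122). Neither change passed with the mean of its probe sets (1.72 and 1.96). Sema3e, a ligand of Plxnd1, went the other way: 5.75 and 5.91 at E10.5, 4.48 and 2.69 in E13.5 females and 2.08 and 3.79 in E13.5 males. Its E13.5 replicates lay 1.79 and 1.71 apart. The changes were -2.25 (SE 0.65, adjusted p 0.0367) and -2.90 (SE 0.65, adjusted p 0.0144), and the female one did not pass without either E10.5 array or without E13.5 female replicate 2.

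Other ligands passed in 1 sex only. Slit3, a Slit ligand, rose in females by 2.29 (adjusted p 0.00225), from 5.87 and 4.65 at E10.5 to 7.54 and 7.55, and Sema4f rose there by 2.81 (adjusted p 0.000282). Sema3b fell in females by 1.40 (adjusted p 0.0283) and Sema4c by 1.14 (adjusted p 0.0422), both from dim or near-median levels. Each of these 2 calls was kept in 5 of 8 other settings. In males the ligands that fell were Slit2 by 3.09, Sema4g by 2.57, Sema5a by 2.50, Sema3c by 1.55 and Efna1 by 1.20, with adjusted p-values from 3.43e-05 to 0.0052. Sema5a, a semaphorin with thrombospondin repeats, read 5.93 and 4.65 at E10.5 and 2.76 and 2.82 in E13.5 males. Taking the mean of all probe sets, Slit2 at -1.0 (adjusted p 0.0631), Sema5a at -0.75 (adjusted p 0.37) and Sema3c at -0.70 (adjusted p 0.113) did not pass in males, nor did Sema3b at -0.74 in females. The second Sema3c probe set changed by 0.16 in males. Efnb3 rose in males by 1.20 (adjusted p 0.00443) and Sema6b, a class 6 semaphorin, by 0.95 (adjusted p 0.0414). The Sema6b call was kept in 4 of 8 other settings. In females the change of Sema6b was 0.86 (adjusted p 0.0501) and that of Sema5a -1.48 (adjusted p 0.0522), so passing in 1 sex does not show a difference between the sexes.

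Among the receptors, Nrp2 fell in both sexes, by 1.58 in females (adjusted p 0.0109) and 5.88 in males (adjusted p 7e-06). The second Nrp2 probe set changed by -0.15 (adjusted p 0.871) and -0.09 (adjusted p 0.936). Taking the mean of all Nrp2 probe sets, the changes were -0.52 (adjusted p 0.3) and -1.56 (adjusted p 0.00579), so the size of the fall rests on 1 probe set. Plxna1, a plexin that pairs with neuropilins, rose from 7.87 and 6.69 to 9.16 and 9.84 in females and 8.60 and 9.00 in males. Its changes were 2.22 (adjusted p 0.00161) and 1.52 (adjusted p 0.0182). They were 0.60 and 0.52 with the mean of all Plxna1 probe sets, and neither passed. The male change also did not pass without either E13.5 male array or without E10.5 replicate 2. Unc5a rose by 3.51 in females (adjusted p 8.6e-05) and by 1.59 in males (adjusted p 0.0103).

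Nrp1 encodes neuropilin 1, and its probe sets did not give the same result. The one used here read 4.13 and 4.91 at E10.5, 5.96 and 6.01 in E13.5 females and 5.69 and 5.47 in E13.5 males. Its changes were 1.47 (adjusted p 0.00508) and 1.06 (adjusted p 0.0357). Another Nrp1 probe set had group means of 7.01 at E9.5, 6.20 at E10.5 and, at E13.5, 3.36 in females and 2.93 in males, that is, lower at E13.5. The mean of all Nrp1 probe sets changed by -0.40 in females (adjusted p 0.453) and -0.88 in males (adjusted p 0.095). The direction of Nrp1 is therefore not settled by these arrays.

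In females the receptors Epha2, Plxnb2 and Ephb3 fell. Epha2 fell by 2.40 (adjusted p 0.000141). Plxnb2, a plexin of class 4 semaphorins, read 9.08 and 8.17 at E10.5 and 6.76 and 6.90 in E13.5 females, and it fell by 1.80 (adjusted p 0.00418). Ephb3, a receptor of ephrin-B ligands, went from 9.71 and 9.22 to 8.35 and 8.79, and fell by 0.90 (adjusted p 0.0267). Plxna3 rose by 1.31 in females (adjusted p 0.0143), as did Epha5 (adjusted p 0.018, dim at both ages), and Unc5b rose by 0.90 (adjusted p 0.0386). In males Epha4, which binds ephrins of both classes, fell from 7.55 and 8.15 to 6.49 and 6.20, a change of -1.51 (adjusted p 0.0126). A second probe set of Epha4 changed by -0.32 and of Unc5b by -0.45, and neither passed. With the mean of all probe sets, 9 of the 17 calls in females and 7 of the 15 in males were kept. Among the calls lost were Plxna3 at 0.89, Epha5 at 0.35 and Unc5b at 0.23 in females and Epha4 at -0.72 in males.

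**Figure D4:**
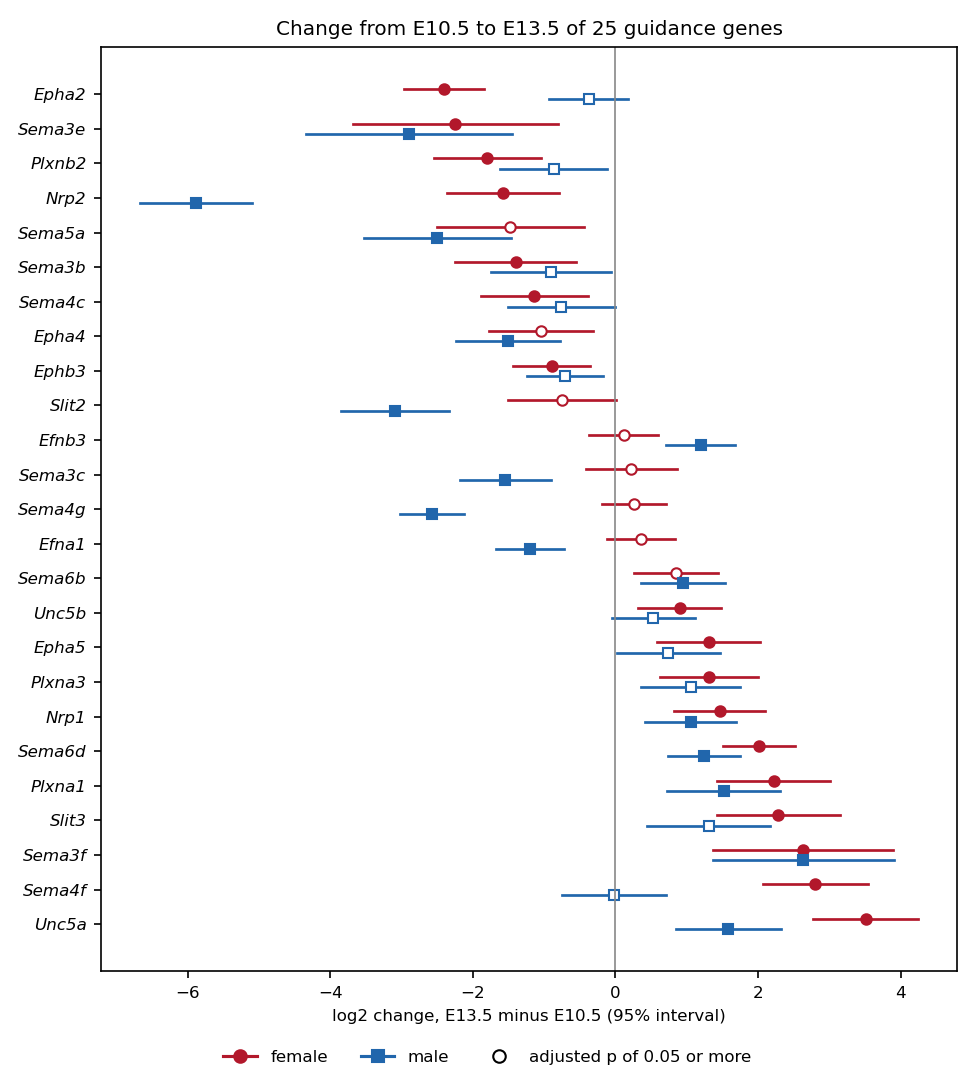
Change in log2 signal from E10.5 to E13.5 in females (circles) and males (squares) for the 25 members that passed in either sex, with 95% intervals and open symbols where the adjusted p was 0.05 or more. Both sexes share the E10.5 arrays; values are those of the probe set of highest mean, where Nrp2 lies at -1.58 in females and -5.88 in males and Unc5a at 3.51 and 1.59.

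Without E13.5 female replicate 1 the female count of 17 was 9, and it was 13 without E13.5 female replicate 2 and 14 and 15 without the first and second E10.5 array. The male count of 15 was 9 without E13.5 male replicate 1, 11 without E13.5 male replicate 2 and 15 and 14 without the first and second E10.5 array. Without both arrays of high Gapdh difference the counts were 10 and 7. The share of all genes that passed also fell in every fit that left out an E13.5 array. Without E10.5 replicate 1 that share rose in both sexes, and without E10.5 replicate 2 it fell. From E10.5 to E13.5, 5 of 10 endothelium markers fell in females and 3 in males. Their log2 summed signal lay between 10.71 and 11.28 at E10.5. At E13.5 it lay between 9.54 and 10.56 for the female arrays and between 9.72 and 10.19 for the male arrays. Pecam1 was the largest part of it, with 10.46 and 9.91 at E10.5, except in E13.5 male replicate 2. Pecam1 read 10.09 and 8.27 for the E13.5 female arrays. For the male arrays it read 9.14 and 6.79, and Cldn5 at 8.60 lay above the latter. The sum therefore depends strongly on Pecam1 and does not measure the amount of endothelium. Of 16 gonadal somatic and mesenchyme markers 4 and 3 fell, and of 7 blood markers 2 fell in each sex. Other lists rose: in females 3 of 6 gut markers (Cdx2, Foxa1 and Foxa2) and 3 of 6 female supporting markers (Rspo1, Bmp2 and Wnt4), in males 2 of 8 male supporting (Cst9 and Ptgds), 2 of 10 neural (Th and Ret) and 1 of 6 female supporting markers (Rspo1). Falls in these lists were Tubb3 in females and Cdx2, Irx3 and Nefm in males. Of 11 germ cell markers, 2 rose and 5 fell in females, and 2 rose and 3 fell in males. The log2 of the summed gut signal lay between 8.02 and 8.32 at E10.5, and that of the female supporting list between 7.78 and 7.99, that of the male supporting list between 9.10 and 9.69. No endothelium marker was at 0 on both arrays of a group. The part of cells other than germ cells in the rises and falls of guidance genes was not tested.

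The single-day steps held few calls. Here too the share of all genes that passed changed when 1 array was left out. From E9.5 to E10.5 the member that passed was Epha5, with 5.34 and 4.82 at E9.5 and 2.94 and 2.66 at E10.5, a change of -2.28 (SE 0.33, adjusted p 0.0087). It read 4.62 and 5.10 at E11.5, a step of 2.06 from E10.5 (adjusted p 0.0582), so the E10.5 arrays stand below their neighbours for this gene. Dropping E9.5 replicate 1 or E10.5 replicate 2 left no member, while 6 passed once E10.5 replicate 1 was dropped, when 10.6% of all genes passed. The mean of all Epha5 probe sets changed by -0.70, which did not pass. Among members above the table median in the higher group, the next fall by size was Sema5a at -1.38 and the largest rises were Sema4g at 0.65 and Epha2 at 0.46, and none passed. Replicates of E9.5 lay more than 1 apart for 13 members and those of E10.5 for 15, against 2 to 8 in the later groups.

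From E10.5 to E11.5, among members chosen the same way, Nrp2 at -1.72 (SE 0.36, adjusted p 0.135), Sema3e at -1.73 and Plxna1 at 0.89 did not pass. From E11.5 to E12.5 in females, Unc5a rose by 2.39 (SE 0.33, adjusted p 0.0074) with Sema6d. Plxnd1 at 1.59, Epha2 at -1.13 and Slit2 at -0.73 did not pass. In males over the same step, Nrp2 fell by 2.24 (adjusted p 0.0182), Sema4g by 2.05 and Slit2 by 1.71 (adjusted p 0.0475), and Slit3 at 0.83 and Unc5b at 0.88 did not pass. With the mean of all probe sets, Nrp2 at -1.22 (adjusted p 0.115) and Slit2 at -0.66 (adjusted p 0.576) did not pass, and the Slit2 call was kept in 1 of 9 other settings. Without E12.5 female replicate 2 the count of 2 in females was 0, and it was 1 without each of the other 3 arrays compared. It was 6 without either E10.5 array, when 3.32% and 3.3% of all genes passed. The count of 3 in males was 0 without the second E12.5 male array, 1 without the first and 1 without E11.5 replicate 2.

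From E12.5 to E13.5, Sema6d rose in both sexes as given above. In females Epha2 fell, and Sema3c rose by 1.32 (adjusted p 0.0487), while Sema4f at 1.42 and Robo3 at -1.08 did not pass. The Sema3c call was kept in 0 of 8 other settings, and its second probe set changed by 0.09. In males Nrp2 fell by 1.92 (adjusted p 0.0245), Efnb3 rose, and Plxna3 rose by 1.55 (adjusted p 0.0337), from 6.72 and 6.20 to 8.33 and 7.69. A second Plxna3 probe set changed by 0.54 (adjusted p 0.551) and the mean of both by 1.04 (adjusted p 0.155). The Plxna3 call was kept in 4 of 9 other settings. The second Nrp2 probe set changed by 0.99 in males, and the mean of all Nrp2 probe sets by -0.01, and neither passed. Slit2 at -0.99 and Epha2 at -0.81 did not pass in males. The female count of 3 was 0 without any single one of the 4 female arrays compared. The male count of 4 was 1 without E12.5 male replicate 2, 0 without each of the other 3 male arrays and 2 without either E12.5 female array. Both counts were 0 without both arrays of high Gapdh difference.

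Members that never passed were 39, of which 19 had a mean above the table median. Among them were the ephrins Efna2, Efnb1 and Efnb2, ligands of EphA and EphB receptors, whose arrays lay between 7.56 and 9.66, between 7.28 and 8.73 and between 6.79 and 8.17. Ephb1, an ephrin-B receptor, lay between 7.40 and 8.30. Sema4d, a class 4 semaphorin that binds plexin-B receptors, lay between 6.84 and 9.24, with E10.5 replicates of 8.89 and 6.84. No Robo receptor passed with the probe set used: Robo1 lay between 4.52 and 5.50 and Robo4, known from endothelium, between 4.14 and 5.14. Another Robo1 probe set passed from E10.5 to E13.5, at 1.53 in females (adjusted p 0.0474) and 2.09 in males (adjusted p 0.0146), and from E9.5 to E10.5 at -2.22 (adjusted p 0.0422). Unc5c, a netrin receptor, lay between 4.54 and 5.89. Efna4, an ephrin-A ligand, passed in the F test alone (adjusted p 0.0172); it read 7.40 and 7.24 in E13.5 females and 6.76 and 6.24 in E13.5 males. Of the 3 genes that share letters only, none passed with the probe set used, and Unc50 lay between 10.83 and 11.65. Another Unc50 probe set passed from E10.5 to E13.5 in females, at 0.94 (adjusted p 0.0499).

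The other members with a mean above the table median that never passed were mainly semaphorins and plexins. Sema3a, the secreted semaphorin best known for axon repulsion, lay between 7.03 and 7.57 with the probe set used, but its probe sets did not give the same result. Another Sema3a probe set had group means of 7.29 at E9.5 and 5.89 at E10.5, and at E13.5 of 2.44 in females and 1.24 in males. From E10.5 to E13.5 it changed by -3.45 in females (adjusted p 0.00139) and -4.65 in males (adjusted p 0.000293), so whether Sema3a changed is not settled here. Sema7a, a lipid-anchored semaphorin that binds plexin C1, lay between 6.80 and 7.81, Sema6c between 6.60 and 7.36 and Sema4b between 6.07 and 8.52. Sema6a and Sema5b lay near the table median, between 4.71 and 5.78 and between 4.24 and 5.25. Plxna2, a plexin-A receptor, lay between 5.93 and 6.96, and Plxnb1, the receptor of Sema4d, between 6.56 and 8.03. Plxnc1, the receptor of Sema7a, lay between 4.26 and 5.73. Ephb4, the receptor of ephrin-B2 in vessels, lay between 5.09 and 6.97, and Unc5cl between 4.09 and 5.36. Among all members that never passed, other probe sets passed for Sema3a, Robo1 and Unc50 only.

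The 20 members that never passed and were dim by their mean were mostly receptors. They were the EphA receptors Epha1, Epha3, Epha6, Epha7, Epha8 and Epha10, the EphB receptor Ephb6, the Robo receptors Robo2, Robo3 and Robo4, the netrin receptor Unc5d, the plexins Plxna4 and Plxnb3 and the antisense transcript Plxna4os1. The dim ligands were Efna3, Efna5, Slit1, Sema3d, Sema3g and Sema4a. Their array values ran from 0 to 5.72, the highest being of Efna3, and a dim signal does not show that a transcript is absent.

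By family, the members that passed in any comparison were 10 of 20 semaphorins, 4 of 9 plexins, both neuropilins, 3 of 9 EphA and 1 of 4 EphB receptors, 2 of 5 ephrin-A and 1 of 3 ephrin-B genes, 2 of 3 Slits, 2 of 4 Unc5 and 0 of 4 Robo receptors. A further probe set with a mean above the table median existed for 9 of the 26 members that passed between groups. In 26 such comparisons the other probe set had the same sign in 20 and passed in 4, which were Efna1 and Sema4f in 2 comparisons each.

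A list of 21 guidance partners (netrins and their receptors, repulsive guidance molecules, Flrt proteins, adhesion proteins and proteases) was followed beside the members. Adam10, a protease that cleaves ephrins, rose from E10.5 to E13.5 by 2.33 in females and 1.48 in males, reading 8.30 and 7.57 at E10.5, 10.22 and 10.30 in females and 9.09 and 9.74 in males. Sdc3, a heparan sulfate proteoglycan, rose by 1.28 and 1.40, and Neo1, a netrin and RGM receptor, rose in females by 0.66. Flrt3, a ligand of Unc5 receptors and partner of Robo1, was lower in E13.5 males than females by -3.47 (adjusted p 0.0121), with 1.85 and 3.77 against 6.32 and 6.24. In all, 3 of 21 (14.3%) rose in females, where 11.4% of all genes did. In males 2 (9.52%) rose and 1 (4.76%) fell, against 7.44% and 5.27% of all genes, so these shares lay near those of all genes.

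Of 55 listed genes for signalling inside the cell, 51 were measured, and more of them were lower than higher in males. At E13.5, 7 (13.7%) were lower and 1 (1.96%) higher, against 5.98% and 4.17% of all genes. At E12.5, 3 (5.88%) were lower and 0 higher, against 1.71% and 0.665% of all genes. All genes were thus also more often lower than higher in males at both ages. Mical1, an enzyme that oxidises actin downstream of plexins, read 9.23 and 9.34 in E13.5 females and 6.27 and 6.16 in males, a difference of -3.07 (SE 0.23, adjusted p 4.26e-05). It was -2.49 at E12.5 (adjusted p 0.000403), and Mical1 rose in females by 2.91 from E10.5. Grip1, a scaffold that binds ephrin-B, differed by -2.30, Chn2, a Rac GTPase activating protein, by -2.53, and Dpysl4, a CRMP family protein, by -2.23, each at E13.5. From E10.5 to E13.5, 7 of 51 (13.7%) rose and 1 fell in females (11.4% and 6.4% of all genes), led by Farp2 at 3.18, a plexin-A associated exchange factor. In males 6 (11.8%) rose and 1 fell (7.44% and 5.27% of all genes), led by Vav2 at 1.89, an exchange factor downstream of Eph receptors. The median sex difference at E13.5 was -0.11 for this list and -0.25 for the partners, against -0.02 for all genes.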

How the data were processed

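The deposited values are log2 probe set signals, per the range of the values (0 to 14.04); the authors normalized all 14 arrays together, the E9.5 arrays again, per the series' design text. For software, background correction and annotation build: not given in the sources used here. In all, 45101 probe sets were listed: 34945 had 1 gene symbol, 932 several, 9160 none and 64 were controls. Each of 18193 genes (18032 matched to RefSeq) was represented by its probe set of highest mean over 14 arrays. The 66 members had 147 probe sets, 43 members had several, and all 66 matched RefSeq.

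The linear model was that of limma (version 3.58.1, R 4.3.3), which estimated each group's mean and moderated the variances along an intensity trend. It used all 14 arrays for E10.5 against E9.5 and 12 arrays otherwise. Tests were two-sided, with Benjamini-Hochberg adjustment over all genes. The procedure was tested on simulated data. Precision is limited by 2 arrays a group. Members and lists were chosen with earlier results of these data known. Genes are named if they passed, had the 2 highest means of their family or were the 2 largest rises or falls of a comparison among members above the table median in the higher group, or, for lists, were the 4 largest that passed. Alternatives were quantile normalization, median centring, leaving out dim genes, the mean of all probe sets, no trend, a floor at the lower quartile of 3.12, the compared arrays alone, a replicate block, the Gapdh difference as a covariate and leaving out each array. Leaving out both arrays of high Gapdh difference was chosen after seeing the data.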

Additional observations from a re-analysis of the deposited data

Results flagged for a closer look

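Among the 10 members that passed between the sexes at E13.5, the change from E10.5 to E13.5 had opposite signs in females and males for 5. The change in males minus that in females was -1.55 for Efna1, -1.88 for Plxnd1, -1.77 for Sema3c, -2.83 for Sema4f and -2.83 for Sema4g. Since both changes start from the same E10.5 arrays, this value equals the sex difference at E13.5, which passed for each of the 5. For Sema4f the male change was close to 0, and for Efna1, Sema3c and Sema4g the female change did not pass. Neither change of Plxnd1 passed.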

How the results depend on the processing

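Leaving out 1 array at a time, the counts of members that passed ranged from 0 to 6 for E10.5 against E9.5 (1 in the full fit), 0 to 6 and 0 to 3 for females and males at E12.5 against E11.5, 0 to 4 and 0 to 4 at E13.5 against E12.5, 1 to 5 between the sexes at E12.5 and 8 to 12 at E13.5, 9 to 19 and 9 to 15 at E13.5 against E10.5 and 15 to 21 in the F test. The counts stayed at 0 for E11.5 against E10.5 and for the change of the sex difference. The share of all genes that passed moved with the array left out as well. The following settings moved a count by over 1.5 times. For E10.5 against E9.5 it was 0 without dim genes, with the mean of all probe sets and with the compared arrays alone. For E11.5 against E10.5 it was 1 without the intensity trend and 1 with the floor. In females at E12.5 against E11.5 it was 1 with the mean of probe sets, without the trend and with the Gapdh covariate, and 0 with the arrays alone; in males 1, with the mean of probe sets or the covariate, and 0 with the arrays alone. At E13.5 against E12.5 it was 1 in females with the mean of probe sets or the covariate, and in males 1 with either or the arrays alone and 2 with the floor; both were 0 without the arrays of high Gapdh difference. Between the sexes it was 3 without dim genes and 2 with the mean of probe sets at E12.5, and 4 at E13.5 without the arrays of high Gapdh difference. For E13.5 against E10.5 it was 10 and 8 in females and males without dim genes, 5 and 4 with the arrays alone, 10 and 7 without the arrays of high Gapdh difference, and 8 in males with the mean of probe sets. The F test gave 11 without dim genes, 12 with the mean of probe sets and 11 without the arrays of high Gapdh difference. The mean of all probe sets reversed Plxna1 at E11.5 against E10.5 (-0.15), Nrp1 at E13.5 against E10.5 in females (-0.40) and males (-0.88), and the change of the sex difference of Nrp2 (0.05). The cause was not tested.

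Of 60 results that passed, 56 did so with quantile normalization, 54 with median centring, 30 of 30 without dim genes, 29 with the mean of probe sets, 52 without the trend, 54 with the floor, 25 with the arrays alone and 43 with the covariate. Replicate numbers were not taken as pairs: deviations of same-numbered arrays correlated between -0.54 and 0.69. Between the sexes they correlated at 0.42 at E12.5 and at 0.67 at E13.5. The replicate block was common to all groups, and a pairing within 1 age was not modelled. With a replicate block 56 of the 60 passed and 12 members differed between the sexes at E13.5. Dim signals and 2 arrays a group limit what could be detected.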
